A study of Rattus norvegicus with 32 samples.

Results

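The brainstem of adrenalectomized rats was compared with that of sham-operated rats, both examined straight after breathing ozone. The 8 libraries concerned were taken by their labels from the 32 of the study, namely 4 from rats without adrenal glands and 4 from rats with them. The study sequenced mRNA of the brainstem and the hypothalamus from 13 weeks old animals of the inbred Wistar Kyoto strain. The ADREX ozone group had undergone total bilateral adrenalectomy and had then been exposed for 4 hours to 0.8 ppm ozone, a gas of polluted air that oxidizes lipids and proteins. The sham ozone group had undergone a sham operation and had the same exposure. ADREX and sham rats that breathed filtered air for 4 hours made 2 further brainstem groups of 4 libraries, and the hypothalamus gave the same 4 groups. The sex of the rats, the interval since the operation and any steroid replacement are not stated in the sources used here. Each library was one brainstem sample, and no source used here says whether each came from a separate rat, so a p-value below speaks of library-to-library spread, which may be technical.

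The adrenal cortex makes corticosterone, the main glucocorticoid of the rat, and aldosterone, and the adrenal medulla releases adrenaline into the blood. Removing both glands takes away the source of these hormones. Corticosterone enters the brain and binds the glucocorticoid receptor (Nr3c1) and the mineralocorticoid receptor (Nr3c2), which then act on target genes as transcription factors. The brainstem holds noradrenergic and adrenergic neurons that take part in the stress response, and inhaled irritants are known to raise blood corticosterone in rats. Genes such as Fkbp5, Per1 and Sgk1 are widely used as readouts of glucocorticoid action in the brain. The steroid hormones themselves were not measured in the files analysed here.

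Libraries held between 6.94 and 12.4 M reads and had between 17876 and 18584 genes with at least 1 read. The hindbrain gene Hoxb5 ranged from 153 to 501 normalized counts over the 8 libraries and the glycine transporter gene Slc6a5 from 3437 to 4465, against at most 7.51 and 144 over the 16 hypothalamus libraries. The hypothalamic factors Nkx2-1 and Sim1 did not exceed 2.36 normalized counts in the 8 libraries. One library, ADREX ozone 81, stood apart. In it 424 genes lay more than 2-fold outside the range of the other 15 brainstem libraries, against 137 in sham ozone 18 and 1 to 42 in each of the remaining 14. ADREX ozone 81 was also the deepest of the 8, and the lowest correlation of log2 values between any of the 8 libraries, 0.906, was between it and sham ozone 18. Results are therefore given with all libraries, and a call or list count that changed without ADREX ozone 81 is followed by its value without it. List members named only for such a change were chosen after their values were seen.

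Levels below are the authors' normalized counts, in library order 81, 82, 83 and 84 for ADREX ozone and 17, 18, 19 and 20 for sham ozone. Changes are log2 differences, ADREX minus sham, with their standard errors, on the log2(value + 1) scale, which understates the change of genes with low counts. A gene was called where limma's adjusted p, over all 14408 genes with a mean of 10 or more, was under 0.05.

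In ozone, 352 genes differed between ADREX and sham brainstem, which was 2.44% of those tested. Of these, 172 (1.19%) were higher and 180 (1.25%) lower in ADREX, and 120 of the higher and 148 of the lower genes differed by 1.5-fold or more. The median change over all genes tested was -0.0045. The ADREX and sham values did not overlap in 1050 genes, or 7.29% of those tested, 544 (3.78%) higher and 506 (3.51%) lower in ADREX. The 15 largest rises and 15 largest falls named below were picked among genes without overlap, so their separation follows from that choice. Without ADREX ozone 81 the count was 444 of 14411 (3.08%), 226 (1.57%) higher and 218 (1.51%) lower. That fit shared 292 genes with the fit of all libraries, lost 60 and added 152. Without sham ozone 18 it was 290 of 14380 (2.02%), 150 (1.04%) higher and 140 (0.974%) lower. Leaving out another sham ozone library reduced the count further, to 218 without library 17, 207 without library 19 and 197 without library 20. Of the 352 genes, 171 were called whichever of the 8 libraries was left out, 67 higher and 104 lower. When the 8 libraries were fitted alone the count was 148, and with ADREX ozone 81 also left out, an alternative chosen after seeing the data, it was 466.

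**Figure D1:**
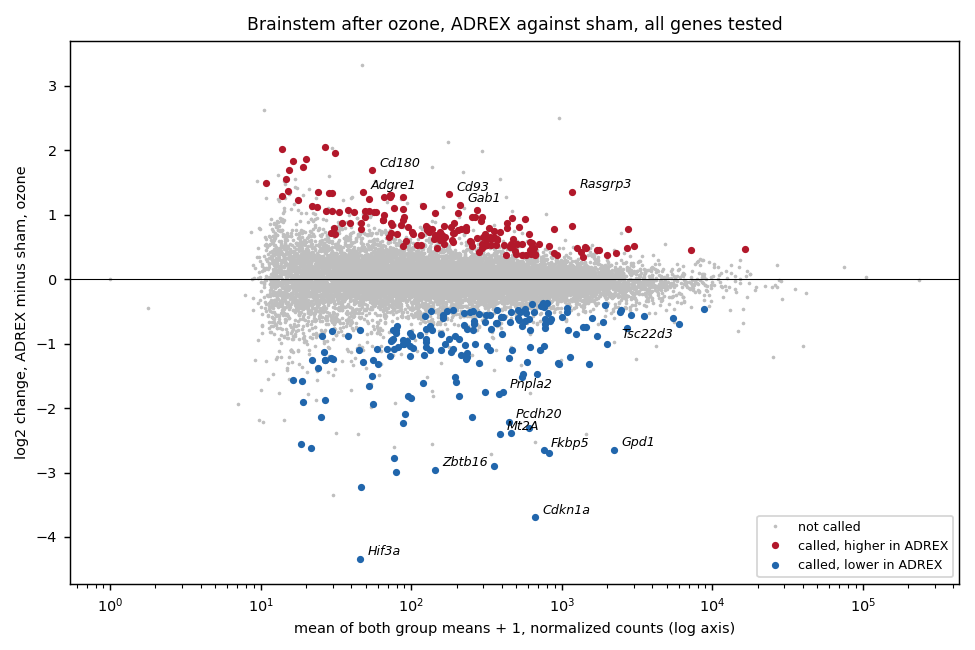
Log2 change of each of the 14408 genes tested, ADREX minus sham in ozone (vertical axis), against the mean of both group means plus 1 in normalized counts (horizontal log axis). Red points are the 172 genes called higher in ADREX, blue points the 180 called lower and grey points the rest, and the changes of the lower genes reached -4.34 (Hif3a), beyond those of the higher genes.

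The genes that fell furthest included standard readouts of glucocorticoid action. Fkbp5, a co-chaperone that dampens the glucocorticoid receptor and is induced by it, had 235, 191, 231 and 173 normalized counts in ADREX ozone, against 1338, 1146, 1410.3 and 1338 in sham ozone. The groups were far apart, and the change was -2.66 ± 0.13 (limma adjusted p = 3.21e-09), a 6.31-fold lower level. Sgk1, a kinase that regulates ion channels and responds to both corticosteroid receptors, had 81.6, 273, 245 and 257 in ADREX ozone and 1836, 502, 2155 and 1269 in sham ozone. The groups did not overlap, but each held a library well below the rest, 81 in ADREX and 18 in sham, and the change was -2.70 ± 0.42 (limma adjusted p = 0.00143). The clock gene Per1, which glucocorticoids also induce, had 159, 148, 145 and 122 in ADREX ozone, against 352, 215, 392 and 339 in sham ozone. It fell by 1.14 on the log2 scale (SE 0.21, limma adjusted p = 0.0053), with sham ozone 18 the lowest of its group.

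Zbtb16, a zinc finger repressor also called PLZF, had 59.8, 22.4, 28.0 and 22.3 normalized counts in ADREX ozone and 324, 138, 293 and 262 in sham ozone. All 4 ADREX values were below all 4 sham values, with a change of -2.95 ± 0.36 (limma adjusted p = 0.000162). Hif3a encodes a hypoxia-inducible factor subunit that can restrain the others. Its values were 4.98, 2.36, 1.75 and 4.25 in ADREX ozone, against 83.98, 48.6, 109.6 and 104 in sham ozone. Hif3a thus had the most negative change of the genes named, -4.34 ± 0.52, with a 95% interval of -5.45 to -3.23 (limma adjusted p = 0.000162). Cdkn1a, the cell cycle inhibitor p21, had 58.5, 106, 97.3 and 129 in ADREX ozone and 1229, 1016, 1478 and 1231 in sham ozone. The lowest sham library lay above the highest ADREX library several times over, and the change was -3.69 ± 0.21, a 12.9-fold lower level (limma adjusted p = 7.34e-09).

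Tsc22d3, which encodes the glucocorticoid-induced leucine zipper GILZ, showed how far ADREX ozone 81 could decide a call. It had 577, 1946, 1962 and 1941 normalized counts in ADREX ozone, against 2996, 2529, 3138 and 2668 in sham ozone. ADREX libraries 82, 83 and 84 were nearly equal and library 81 was far below them, although no ADREX value reached the sham range. With all libraries the change was -0.97 ± 0.28 and did not pass (limma adjusted p = 0.0981). Without ADREX ozone 81 the change was smaller, -0.53, and passed (limma adjusted p = 0.00541).

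**Figure D2:**
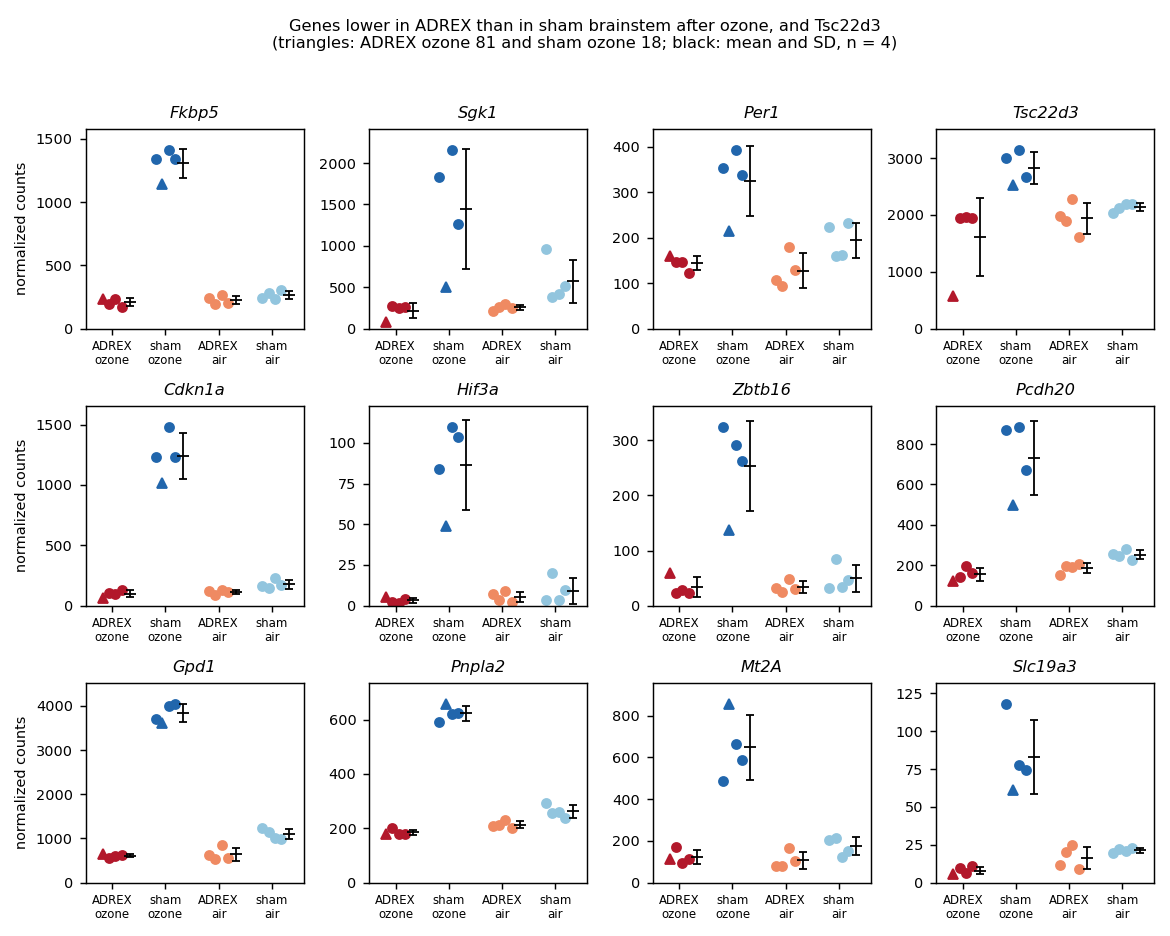
Normalized counts (vertical axes, from 0) of 12 genes in each brainstem library, with ADREX ozone, sham ozone, ADREX air and sham air from left to right and the mean and SD of each group in black (n = 4). Triangles mark ADREX ozone 81 and sham ozone 18, and in each panel all sham ozone values lie above all ADREX ozone values, as for Gpd1, with 567 to 644 in ADREX ozone and 3623 to 4040 in sham ozone.

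Genes of lipid and fuel handling were a further set among the largest falls. Gpd1, the cytosolic glycerol-3-phosphate dehydrogenase that links glycolysis to lipid synthesis, had 644, 567, 609 and 624 in ADREX ozone and 3697, 3623, 3995 and 4039.7 in sham ozone. Values within each group were close together, and the change was -2.65 ± 0.13 with the smallest adjusted p of the genes tested (limma, 2.91e-09). Pnpla2, the lipase that starts the breakdown of stored triglyceride, had 178, 201, 178 and 181 in ADREX ozone, against 590.0, 657, 620.2 and 624 in sham ozone. It changed by -1.75 ± 0.09 (limma adjusted p = 5.71e-09). A locus that carries only a provisional name, LOC100911615, followed it closely at -1.75 ± 0.10, and whether the loci share reads is not known, so both values are uncertain. Pex11a, a membrane protein that promotes peroxisome division, averaged 148 ± 26.1 in ADREX ozone and 767 ± 62.2 in sham ozone (SD, n = 4 each), a change of -2.39 ± 0.14. The secreted phospholipase Pla2g3 averaged 85.7 ± 23.9 in ADREX ozone and 626 ± 40.5 in sham ozone, a change of -2.90 ± 0.19. Limma's adjusted p was 1.75e-08 for Pex11a and 4.12e-08 for Pla2g3, and neither gene's groups overlapped.

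Of the 33 tested members of the list of lipid, peroxisome and fuel-switch genes, 6 fell and none rose, beside 1.25% lower and 1.19% higher of all genes tested. The other members that fell were the pyruvate dehydrogenase kinase Pdk4 (-1.61 ± 0.25) and the lipid droplet protein Plin4 (-1.82 ± 0.36). The list's median change was -0.12, and 27 members did not pass. Enzymes of fatty acid oxidation such as Cpt1a (-0.19 ± 0.17, limma adjusted p = 0.756) and Acadm (0.08 ± 0.16, limma adjusted p = 0.901) did not pass. The counts were 7 lower and 1 higher when ADREX ozone 81 was left out, with calls for the phosphatidate phosphatase Lpin1 (-0.40) and the fatty acid elongase Elovl7 (0.78).

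The metallothionein Mt2A, which binds zinc and copper, had 111, 170.0, 94.7 and 114 in ADREX ozone and 485, 855, 664 and 589 in sham ozone, a change of -2.40 ± 0.25 without overlap (limma adjusted p = 3.17e-05). Mt1 averaged 93.0 ± 44.6 in ADREX ozone and 410.0 ± 168 in sham ozone, with a change of -2.14 ± 0.32 (limma adjusted p = 0.000999). Mt1m changed by -2.78 ± 0.53, but RefSeq lists it as a pseudogene, so its reads may belong to the other metallothioneins. The flavin monooxygenase Fmo2, which oxidizes nitrogen and sulfur compounds, had 12.5, 22.4, 13.1 and 21.2 in ADREX ozone, against 152, 139, 126 and 144 in sham ozone. It changed by -2.99 ± 0.28 (limma adjusted p = 6.12e-06). Slc19a3, a thiamine transporter, had 5.61, 9.44, 6.14 and 10.6 in ADREX ozone and 118, 60.9, 77.8 and 74.4 in sham ozone, and all sham libraries lay well above all ADREX libraries. Its change was -3.22 ± 0.31 (limma adjusted p = 8.98e-06). The phenol sulfotransferase Sult1a1 changed by -2.23 ± 0.27 (limma adjusted p = 0.000181).

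Pcdh20, a protocadherin of the cell surface, had 121, 143, 197 and 159 in ADREX ozone and 869, 499.9, 883 and 673 in sham ozone. The groups did not overlap, sham ozone 18 was the lowest sham library, and the change was -2.22 ± 0.18 (limma adjusted p = 9.01e-07). Gpatch4, a G-patch protein, averaged 207 ± 51.3 in ADREX ozone and 1009 ± 33.8 in sham ozone, a change of -2.31 ± 0.16 (limma adjusted p = 8.45e-08). Both genes kept their calls whichever library was left out.

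The list of 42 glucocorticoid-responsive genes was written with earlier results of these data known, so its direction is not independent evidence. All 42 passed the filter on low values. Lists share members, so their counts are not independent of each other. Gpd1, Pdk4, Plin4, Errfi1, Nfkbia, Per1, Usp2, Hif3a, Ddit4, Mt1, Mt2A and Sgk1 are in this list and are counted in another list too. Of them 25 fell in ADREX ozone and none rose, while 1.25% of all genes tested fell. The median change of the list was -1.01, 39 members had a negative change, and 17 did not pass. Besides those described above, the list's falls included the glucocorticoid-induced Krüppel-like factors Klf9 (-1.09 ± 0.20) and Klf15 (-0.94 ± 0.18), the arrestin-domain gene Arrdc2 (-1.17 ± 0.19), the TORC1 inhibitor Ddit4 (-1.10 ± 0.23) and the receptor kinase Mertk (-0.77 ± 0.14). Nfkbia, which encodes the NF-kappaB inhibitor and is induced by glucocorticoids, had 92.8, 205, 145 and 198 in ADREX ozone and 464, 213, 540.2 and 384 in sham ozone. Its highest ADREX value lay just under sham ozone 18, the lowest sham value, and the change was -1.30 ± 0.28 (limma adjusted p = 0.0189). Members that did not pass included the phosphatase Dusp1 (-0.90 ± 0.31, limma adjusted p = 0.19), Cebpd (-0.92 ± 0.29, 0.134) and Tat (0.47 ± 1.47, 0.943). The call of Nfkbia held in 4 of the 8 fits that left out a library. The factor Cebpb (-1.24 ± 0.29) was called with all libraries and in 2 of those 8 fits, and not without ADREX ozone 81 (-0.98, limma adjusted p = 0.0589). Leaving out ADREX ozone 81 gave 27 falls and a median of -0.97. That fit lost Cebpb and Map3k6 and added Tsc22d3, Bcl6 (-0.90), Gadd45g (-1.28) and Xdh (-0.71). Without sham ozone 18, 22 fell and the median was -1.13. Summed over the list, normalized counts ran from 16404 to 28727 in ADREX ozone libraries and from 40981 to 50694 in sham ozone libraries, with ADREX ozone 81 and sham ozone 18 lowest in their groups. Abundant members weigh most in such a sum, and some of them did not pass. Glul averaged 12469 in ADREX ozone and 19416 in sham ozone (limma adjusted p = 0.052). Slc2a1 averaged 3023 in ADREX ozone and 5439 in sham ozone (limma adjusted p = 0.201).

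**Figure D3:**
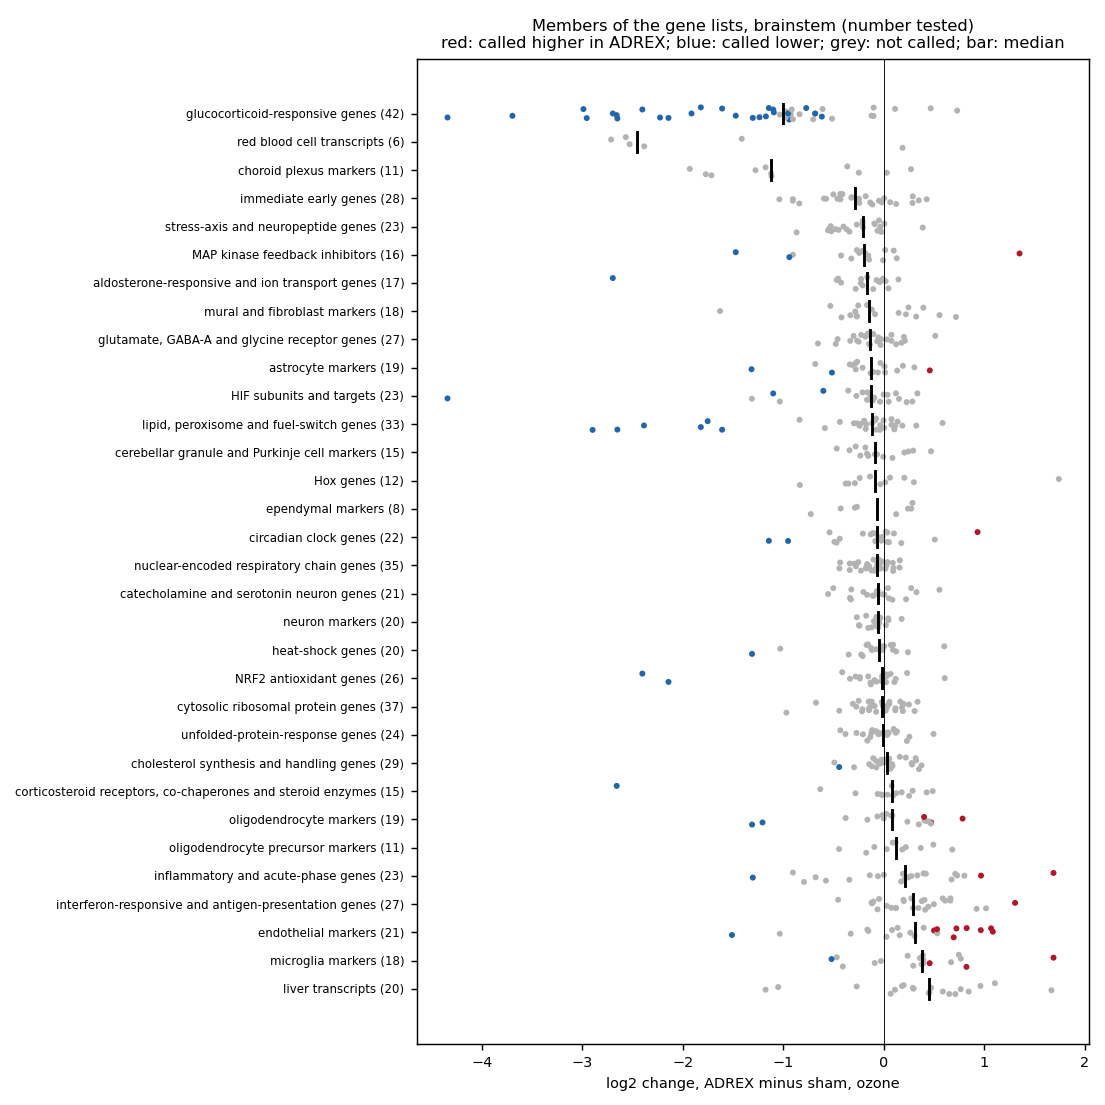
Log2 change, ADREX minus sham in ozone, of each tested member of the gene lists with 5 or more tested members, 1 list a row and the number tested in parentheses. Red points are members called higher in ADREX, blue points members called lower and the black bar is the median of the list, which was -1.01 for the glucocorticoid-responsive genes and 0.31 for the endothelial markers.

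The glucocorticoid receptor binds DNA as a dimer at paired half-sites, so the stretch just before the start of the called genes was searched for such pairs. RefSeq windows of 250 bases before to 50 bases after a start (rat build GRCr8) were matched to 257 of the 352 called genes, 250 by symbol and 7 by an older symbol. The palindromic motif, GNACA and TGTNC with any 3 bases between them, which reads the same on both strands, was present in 126 of 27457 genes with a window, or 0.459%. It was found in 3 of the 138 lower genes with a window (2.17%) and in none of the 119 higher genes. The single half-site AGAACA, searched on both strands and allowed to lie within the longer motif, was in 21.6% of all genes with a window, 13.0% of the lower genes and 12.6% of the higher genes. The shares over all genes with a window include genes that were not tested in the brainstem. Whether either motif was more or less frequent in called genes than among the genes tested was not examined. The genes with the palindromic motif were Fam107a, Map3k6 and Eva1c, and in Eva1c it lay past the start. The other pair are shown because they are the called genes whose window held the motif before the start. Capitals mark the motif, and both stretches are on the plus strand, at chr15:19046331-19046423 and chr5:150724024-150724116.
Fam107a: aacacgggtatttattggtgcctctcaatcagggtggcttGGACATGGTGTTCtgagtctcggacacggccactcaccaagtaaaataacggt
Map3k6: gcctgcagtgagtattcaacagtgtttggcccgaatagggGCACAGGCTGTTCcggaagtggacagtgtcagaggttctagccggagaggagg
A match describes the letters of the window and is not evidence of binding.

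Fam107a encodes an actin-associated protein known from mouse work to be induced by stress and glucocorticoids. It had 404, 550.0, 633 and 428 normalized counts in ADREX ozone and 986, 847, 1080.5 and 1183 in sham ozone. The change was -1.04 ± 0.15 (limma adjusted p = 0.000683), and the call held whichever library was left out. Map3k6, a kinase of the stress-activated cascade, had 5.61, 7.08, 7.01 and 7.44 in ADREX ozone, against 22.9, 23.2, 26.3 and 44.9 in sham ozone. Its change of -1.91 ± 0.45 was called with all libraries (limma adjusted p = 0.0317) and in none of the fits that left out a library.

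Among the genes named, no rise exceeded 1.69 (Cd180). Rasgrp3, an exchange factor that activates Ras and Rap, had 1695, 1633, 1694 and 1724 in ADREX ozone and 646, 739, 673 and 593 in sham ozone. The ADREX values lay within a narrow band far above the sham values, a 2.55-fold higher level and a change of 1.35 ± 0.09 (limma adjusted p = 4.12e-08). Gab1, a docking protein of growth factor receptors, had 508, 191, 214 and 275 in ADREX ozone and 132, 121, 134 and 109.8 in sham ozone. Its groups did not overlap, and ADREX ozone 81 was well above the other ADREX libraries. With all libraries the change was 1.15 ± 0.23 (limma adjusted p = 0.00972), and without library 81 it was 0.85 (0.00383). The inhibitor of receptor kinases Errfi1 went the other way. It had 242, 423, 409 and 388 in ADREX ozone and 986, 815, 1304 and 923 in sham ozone, a change of -1.47 ± 0.19 (limma adjusted p = 0.000239). Of 16 tested genes in the list of MAP kinase feedback, 1 rose and 2 fell, beside 1.19% higher and 1.25% lower of all genes. The rise was Rasgrp3, which is in that list although it activates Ras, and the falls were Errfi1 and Spry1. The Spry1 call held in 2 of the 8 fits that left out a library and was lost without ADREX ozone 81 (-0.69, limma adjusted p = 0.0629).

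Immune cell genes were among the rises. Cd180, a Toll-like receptor homologue of B cells and microglia, had 40.5, 104, 79.8 and 109 in ADREX ozone and 25.1, 32.6, 16.4 and 22.4 in sham ozone. The lowest ADREX value, that of library 81, was still above the highest sham value, and the change was 1.69 ± 0.26 (limma adjusted p = 0.0013). Adgre1, the macrophage surface protein F4/80, had 87.2, 63.7, 52.6 and 70.1 in ADREX ozone, against 28.4, 25.4, 27.4 and 22.4 in sham ozone. It changed by 1.35 ± 0.23 without overlap (limma adjusted p = 0.00268). Tlr2, a receptor for bacterial lipoproteins, had 89.1, 120.4, 127 and 131 in ADREX ozone and 46.9, 91.4, 50.4 and 54.3 in sham ozone. Sham ozone 18 lay within the ADREX range for Tlr2, and the change was 0.97 ± 0.20 (limma adjusted p = 0.0125), a call kept in 6 of the 8 fits that left out a library. The interferon-induced GTPase Gbp2 had 109, 102, 86.8 and 115 in ADREX ozone and 26.2, 58.0, 39.4 and 46.0 in sham ozone, a change of 1.31 ± 0.20 (limma adjusted p = 0.00113). The Fc receptor-like gene Fcrl2 changed by 1.28 ± 0.18 and the late-endosome GTPase Rab7b by 1.31 ± 0.17, with limma adjusted p = 0.000454 and 0.000349. RT1-T24-3, a class I histocompatibility gene, changed by 1.24 ± 0.30, but its call was lost without ADREX ozone 81 (limma adjusted p = 0.0586), and reads may be split among genes of that family.

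Of 18 tested microglia markers, 3 rose and 1 fell, beside 1.19% higher and 1.25% lower of all genes, and the median change was 0.38. The rises were Cd180, the actin-binding protein Aif1 (0.82 ± 0.20) and the microglial factor Sall1 (0.46 ± 0.11), and the fall was the lysosomal protease Ctss (-0.52 ± 0.12). Defining markers such as P2ry12 (0.40 ± 0.25, limma adjusted p = 0.632), Tmem119 (-0.09 ± 0.35, 0.955) and C1qa (-0.03 ± 0.17, 0.972) did not pass. The calls of Sall1 and Ctss each held in 4 of the 8 fits that left out a library, and Ctss was lost without sham ozone 18. In the fit without ADREX ozone 81, 5 rose and 1 fell. Aif1 then lost its call (0.66, limma adjusted p = 0.067), and the fractalkine receptor Cx3cr1 (0.92) and the Fc receptors Fcgr3a (1.08) and Fcgr2b (0.62) gained one. Summed over the list, normalized counts were 3866 to 4488 in ADREX ozone and 3448 to 4070 in sham ozone, which overlap. In bulk tissue, more or fewer cells of a type cannot be told apart from more or less of the RNA in each cell. Of the 27 interferon and antigen-presentation genes tested only Gbp2 passed, and the list's median was 0.29. Among 23 inflammatory genes Cd180 and Tlr2 rose and Nfkbia fell. For both of these lists the share over all genes was again 1.19% higher and 1.25% lower.

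**Figure D4:**
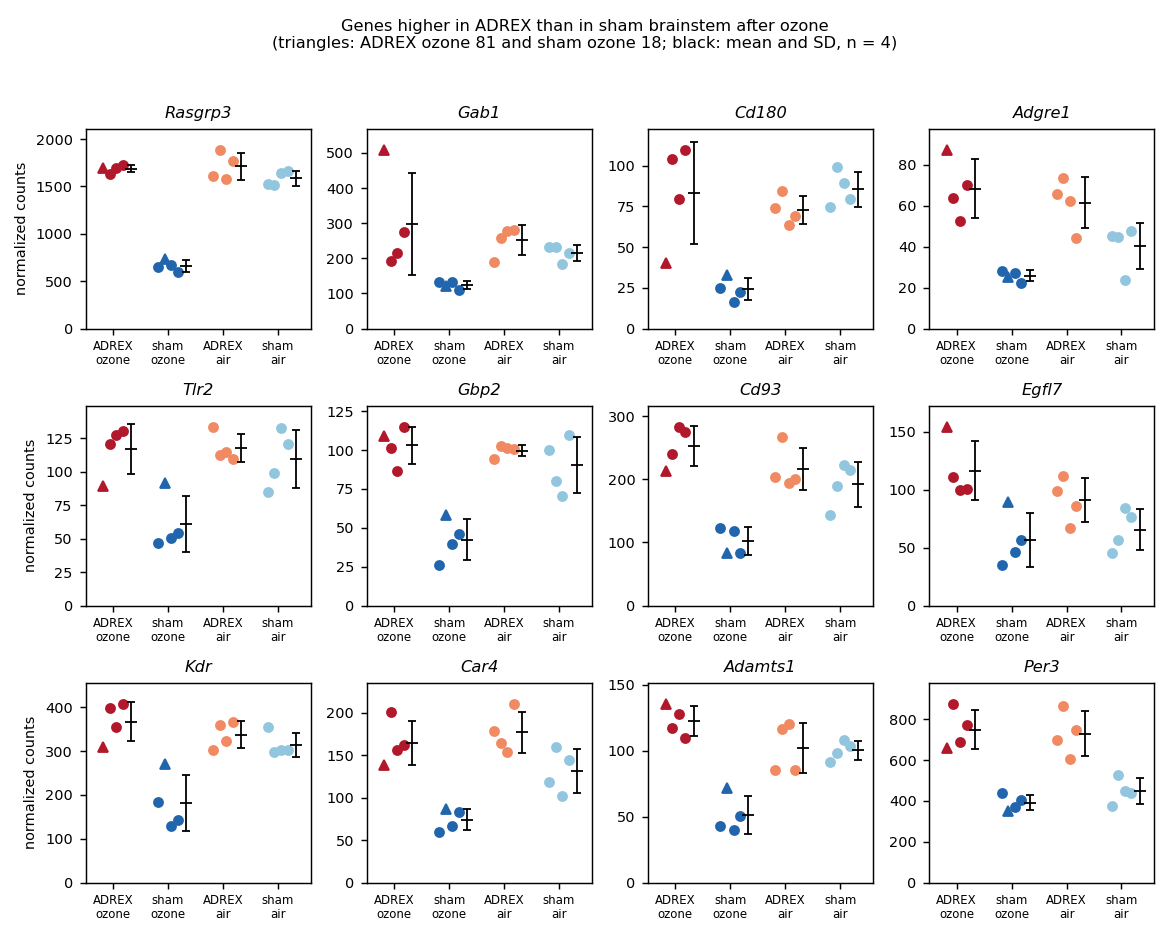
Normalized counts (vertical axes, from 0) of 12 genes called higher in ADREX, in each brainstem library, with ADREX ozone, sham ozone, ADREX air and sham air from left to right and the mean and SD of each group in black (n = 4). Triangles mark ADREX ozone 81 and sham ozone 18, and the groups in ozone are widely separated for Rasgrp3, with 1633 to 1724 in ADREX ozone and 593 to 739 in sham ozone.

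Genes of blood vessels formed the list with the most rises. Of 21 tested endothelial markers, 8 rose and 1 fell, beside 1.19% higher and 1.25% lower of all genes, and the median change was 0.31. Tie1, a receptor tyrosine kinase of endothelial cells, had 426, 330.5, 319.9 and 317 in ADREX ozone and 181, 201, 156 and 171 in sham ozone, so that the groups were well separated. It changed by 0.97 ± 0.12 (limma adjusted p = 0.000239). Kdr, the main receptor for vascular endothelial growth factor, had 309, 398, 356 and 407 in ADREX ozone, against 184, 271, 128 and 142 in sham ozone, a change of 1.07 ± 0.18 (limma adjusted p = 0.00257). Its highest sham value, again library 18, stayed below the lowest ADREX value. The angiopoietin receptor Tek (0.50 ± 0.11), the junction cadherin Cdh5 (0.72 ± 0.18), the co-receptor endoglin Eng (0.53 ± 0.11), the secreted factor Egfl7 (1.09 ± 0.26) and the organic anion transporters Slco1c1 (0.70 ± 0.12) and Slco1a4 (0.83 ± 0.17) rose too. The calls of Egfl7 (0.94, limma adjusted p = 0.0785) and Cdh5 (0.70, 0.0575) were lost without ADREX ozone 81, so that the list had 6 rises and 1 fall. Each of these 2 calls held in 1 of the 8 fits that left out a library, and that of Eng in 6.

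Other endothelial markers did not move that way. Mfsd2a, the lipid transporter that keeps the blood-brain barrier closed and carries docosahexaenoic acid, fell. It had 181, 332, 299.7 and 341 in ADREX ozone and 778, 818, 850.3 and 752 in sham ozone, a change of -1.51 ± 0.20 (limma adjusted p = 0.000341). The tight junction gene Cldn5 (-0.16 ± 0.28, limma adjusted p = 0.881) and the factor Erg (0.03 ± 0.24, 0.981) did not pass. Summed normalized counts over the endothelial list were 10470 to 13914 in ADREX ozone and 12564 to 14028 in sham ozone, and thus overlapped. Outside the list, Cd93, Car4 and Adamts1 also rose. Cd93, a C-type lectin of endothelial and myeloid cells, changed by 1.32 ± 0.17, and Car4, a carbonic anhydrase of brain capillaries, by 1.14 ± 0.17. Adamts1, a secreted protease that cuts proteoglycans, changed by 1.28 ± 0.18. Limma gave these 3 genes, in that order, adjusted p = 0.000316, 0.000728 and 0.000454. Also among the 15 largest rises were the channel-like Tmc7 (1.28 ± 0.18), the FGF receptor-like Fgfrl1 (1.10 ± 0.22) and the ADP-ribosyltransferase-like Art4 (1.07 ± 0.19).

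Glial genes changed in both directions. Aspa, an oligodendrocyte enzyme that breaks down N-acetylaspartate, had 413, 738, 820.4 and 814 in ADREX ozone and 1717, 1310.3, 1619.6 and 1587 in sham ozone. It changed by -1.21 ± 0.17 (limma adjusted p = 0.000609), with library 81 the lowest of all. The small heat-shock protein Cryab, abundant in oligodendrocytes, changed by -1.31 ± 0.20 (limma adjusted p = 0.000999). Opalin, a myelin membrane protein, had 2291, 3858, 3942 and 4079.9 in ADREX ozone and 2126, 1924, 2032 and 1942 in sham ozone. ADREX ozone 81 lay close to the sham libraries for Opalin, and the other ADREX libraries were far above every sham library. Its change was 0.78 ± 0.15 (limma adjusted p = 0.0058), and 0.98 without library 81 (2.07e-06). In all, 3 oligodendrocyte markers rose and 2 fell of 19 tested, beside 1.19% higher and 1.25% lower of all genes, and the myelin genes Mbp (0.03 ± 0.17) and Mog (0.07 ± 0.13) did not pass. The fit without ADREX ozone 81 had 4 rises and 2 falls, the added gene being Ugt8 (0.45), an enzyme of myelin lipid synthesis. Summed over the oligodendrocyte list, normalized counts were 297761 in ADREX ozone 81, against 449937 to 464819 in the other ADREX ozone libraries and 377346 to 428357 in sham ozone. Whether that library's low sum has a part in these changes was not tested beyond leaving it out.

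Among 19 astrocyte markers 2 fell and 1 rose with all libraries, beside 1.25% lower and 1.19% higher of all genes tested. Without ADREX ozone 81, 4 fell and 1 rose, beside 1.51% lower and 1.57% higher of all genes. Gjb6, the gap junction protein connexin 30, had 303, 762, 685 and 533 in ADREX ozone and 1326, 1415, 1293 and 1339.9 in sham ozone, a change of -1.32 ± 0.22 (limma adjusted p = 0.00295). Agt, the precursor of angiotensin, averaged 1999.8 ± 168 in ADREX ozone and 2854 ± 154 in sham ozone and changed by -0.52 ± 0.10 (limma adjusted p = 0.00964). The filament gene Gfap had 9907, 7886, 7011 and 8569.8 in ADREX ozone and 5255, 6870.5, 6275 and 5813 in sham ozone. Its rise of 0.46 ± 0.11 was called with all libraries (limma adjusted p = 0.0409) and in 2 of the 8 fits that left out a library. It was not called in the fit without ADREX ozone 81 (0.37, limma adjusted p = 0.0607). That fit added a rise of the water channel Aqp4 (0.39) and falls of the glycolytic enzyme Aldoc (-0.55) and of Mfge8 (-0.45), a secreted protein that aids phagocytosis. No marker passed in the lists for neurons, oligodendrocyte precursors, choroid plexus, ependyma, Hox genes or cerebellar cells by the fit of all libraries, and without ADREX ozone 81 the ependymal marker Rarres2 fell (-0.84).

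Blood and choroid plexus transcripts varied among the libraries. The 6 tested red blood cell transcripts had a median change of -2.46, and none passed. Without ADREX ozone 81 their median was -3.16 and 4 fell, beside 1.51% lower of all genes tested. The list's summed normalized counts were 135 to 2259 in ADREX ozone, with library 81 the highest, and 1464 to 7964 in sham ozone, with library 17 the highest. The 11 tested choroid plexus markers had a median of -1.12, with none passing, while the summed counts of the list's 13 genes in the file were 8048 to 10305 in ADREX ozone and 7041 to 9181 in sham ozone. The median and the sums thus differed in direction, and the sums overlapped. Liver transcripts summed to 51416 in sham ozone 18, against 15545 to 24889 in ADREX ozone and 12263 to 14842 in the other sham ozone libraries. The part of these transcripts in the gene changes was not tested.

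Clock genes and stress receptors completed the genes examined. Per3, a clock gene, went against Per1. It had 657, 873, 691 and 773 in ADREX ozone and 436, 353, 368 and 405 in sham ozone, and its rise of 0.93 ± 0.13 was larger than the spread between libraries (limma adjusted p = 0.000515). Usp2, a deubiquitinase with a daily rhythm, changed by -0.95 ± 0.24 (limma adjusted p = 0.0398), a call that held in 1 of the 8 fits that left out a library and was lost without sham ozone 18 (0.0547). No other of the 22 clock genes passed. Over all genes tested, 1.19% were higher and 1.25% lower. The receptor gene Nr3c1 had 732, 1281, 1327 and 1499 in ADREX ozone, against 852, 830.0, 840.5 and 812 in sham ozone. Libraries 82, 83 and 84 exceeded every sham library and library 81 did not. The change was 0.49 ± 0.16 with all libraries (limma adjusted p = 0.181), which did not pass, and 0.71 without library 81 (limma adjusted p = 0.000276), which did. The mineralocorticoid receptor gene Nr3c2 (0.43 ± 0.14, limma adjusted p = 0.187) did not pass.

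Immediate early and catecholamine genes showed no called difference. Fos averaged 50.5 ± 3.36 in ADREX ozone and 42.0 ± 9.16 in sham ozone, and Nr4a1 averaged 108 ± 40.9 in ADREX ozone and 138 ± 19.9 in sham ozone. None of the 28 immediate early genes passed, and their median was -0.28 with all libraries and -0.12 without ADREX ozone 81. Th, the first enzyme of catecholamine synthesis, had a change of -0.10 ± 0.13 (limma adjusted p = 0.8286). Dbh, the enzyme that makes noradrenaline, had 128, 172, 115 and 96.7 in ADREX ozone and 189, 207, 152 and 192 in sham ozone, which overlap, and a change of -0.55 ± 0.19 (limma adjusted p = 0.195). None of 21 catecholamine and serotonin genes passed. Crh, the peptide that starts the stress axis, was at 19.9, 57.8, 53.5 and 56.3 in ADREX ozone and 52.3, 40.6, 42.7 and 42.5 in sham ozone, with library 81 far below the rest. The oxidant-response enzyme Hmox1 averaged 48.9 ± 7.93 in ADREX ozone and 48.1 ± 9.03 in sham ozone, a change of 0.03 ± 0.16 (limma adjusted p = 0.97). The list counts that follow stand beside 1.19% higher and 1.25% lower of all genes tested, and 1.57% and 1.51% without ADREX ozone 81. Of the genes counted in them, Mt1, Mt2A, Hif3a, Ddit4 and Sgk1 are also in the glucocorticoid-responsive list. Of 26 NRF2 antioxidant genes only the metallothioneins Mt1 and Mt2A passed, and both fell. Without ADREX ozone 81 the cystine transporter Slc7a11 also rose (0.88). Of 23 HIF subunits and targets, Hif3a, Ddit4 and the lipoprotein receptor Vldlr (-0.60 ± 0.11) fell and the others did not pass, Vegfa among them (-0.16 ± 0.12, limma adjusted p = 0.712). Of 17 aldosterone-responsive genes Sgk1 alone fell, of 20 heat-shock genes Cryab, and of 29 cholesterol genes the sterol sensor partner Scap (-0.44 ± 0.11), whose call was lost without sham ozone 18 (limma adjusted p = 0.108) and held in 1 of the 8 fits that left out a library. Without ADREX ozone 81, Tsc22d1 of the aldosterone list (-0.30) and the co-chaperone Bag3 of the heat-shock list (-0.50) fell too, and the cholesterol genes Hmgcs1 (0.40) and Abca1 (0.44) rose. No gene passed among 24 unfolded-protein-response, 35 respiratory chain, 37 ribosomal protein and 27 neurotransmitter receptor genes.

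The same operation was compared in air to see whether these differences were present without ozone. In air limma called 0 of 14408 genes between ADREX and sham brainstem. An unadjusted p under 0.05 was found for 545, fewer than chance alone would give on average at that threshold. On whole reads recovered from the deposited values edgeR also called 0, with 542 unadjusted, and DESeq2 called 16. Fkbp5 averaged 225 ± 32.9 in ADREX air and 264 ± 33.9 in sham air, so that the sham ozone group stood apart from the other 3. Rasgrp3 averaged 1710.5 ± 141 in ADREX air and 1584 ± 78.6 in sham air, where sham ozone again differed from the rest. Gpd1 averaged 641 ± 147 in ADREX air and 1098 ± 119 in sham air, a change of -0.79 ± 0.13 that narrowly missed the threshold (limma adjusted p = 0.0539). Pla2g3 (-1.15 ± 0.19) and Fcrl2 (1.09 ± 0.18) had the same adjusted p in air. For the 42 glucocorticoid-responsive genes the median change in air was -0.29.

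The difference between ozone and air was then tested itself. By the interaction of operation and exposure, 29 of 14408 genes (0.201%) differed, 22 (0.153%) with a more negative and 7 (0.0486%) with a more positive change in ozone. Fkbp5 changed by -2.66 ± 0.13 in ozone and -0.23 ± 0.13 in air, a difference of -2.42 ± 0.19 (limma adjusted p = 6.34e-06). Cdkn1a had a difference of -3.06 ± 0.29, Pex11a of -2.00 ± 0.20, Gpd1 of -1.86 ± 0.18, Pnpla2 of -1.46 ± 0.13 and Rasgrp3 of 1.24 ± 0.12, with limma adjusted p between 2.73e-05 and 4.19e-05. Of the 42 glucocorticoid-responsive genes 5 passed. Sgk1 (-1.63 ± 0.60, limma adjusted p = 0.678) and Per1 (-0.52 ± 0.30, 0.994) did not, nor did any endothelial marker. Fcrl2 and Per3 had changes of similar size in ozone and in air, but neither was called in air (limma adjusted p = 0.0539 and 0.186). A difference that did not pass does not show that the changes were equal. Fcrl2 changed by 1.28 ± 0.18 in ozone and 1.09 ± 0.18 in air, a difference of 0.19 ± 0.25 (limma adjusted p = 0.994). Per3 changed by 0.93 ± 0.13 in ozone and 0.70 ± 0.13 in air, a difference of 0.23 ± 0.19 (0.994). Without ADREX ozone 81 the interaction called 47 genes. With another library left out the lowest count was 18, reached on removal of library 4, 17, 20 or 68, and removal of library 19, 65 or 83 gave 19.

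**Figure D5:**
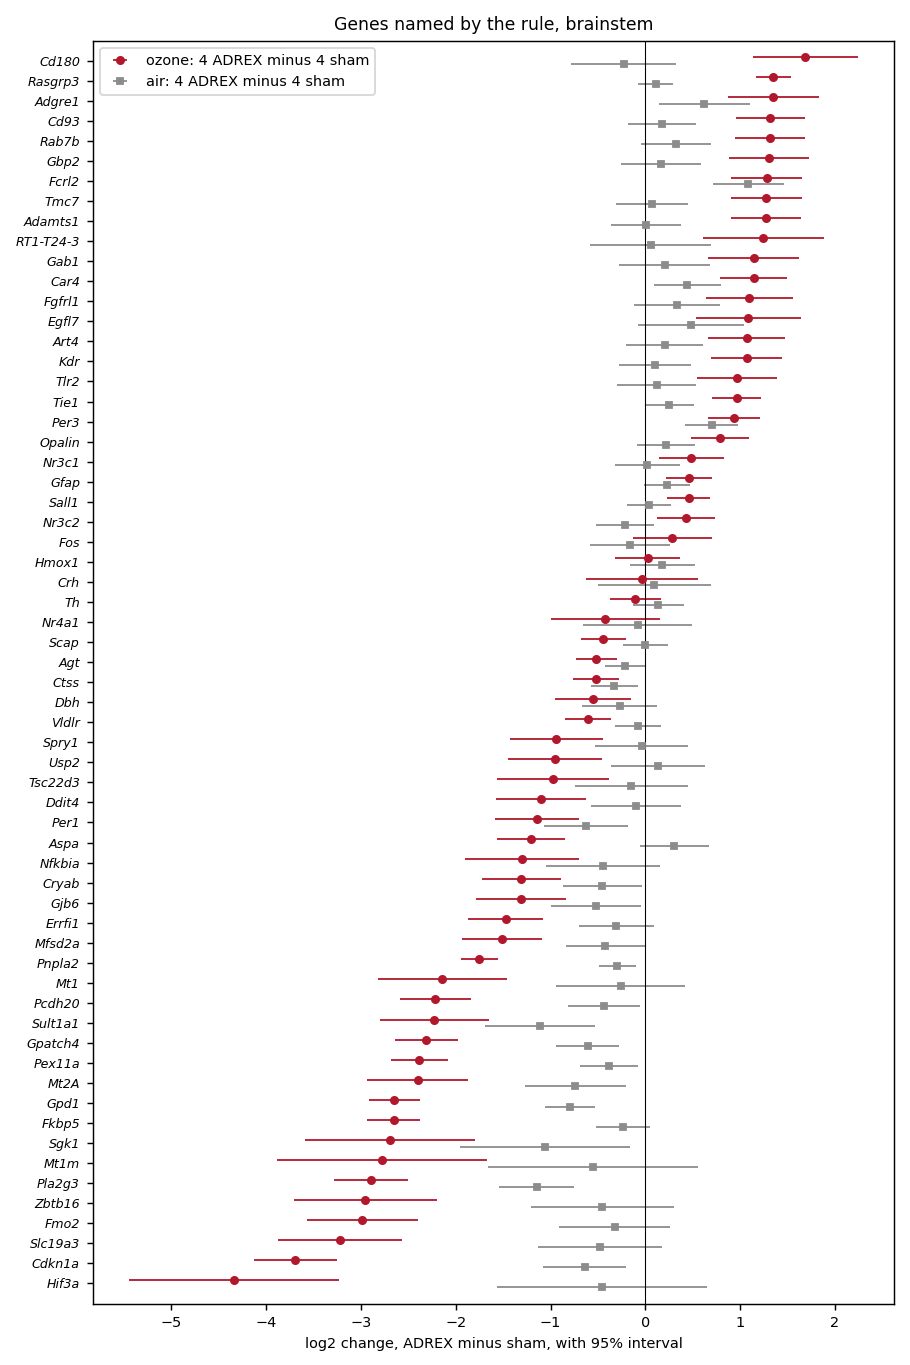
Log2 change, ADREX minus sham, with 95% intervals, of the genes named by the rule, in ozone (red circles) and in air (grey squares), 4 libraries a group. Fkbp5 lies at -2.66 in ozone and -0.23 in air, while Fcrl2 and Per3 lie close together in both exposures.

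The hypothalamus gave a second tissue for the same comparison, in other libraries. These carry the same replicate numbers as the brainstem libraries and may come from the same rats, so calls shared by the tissues may not be independent. There 325 of 14483 genes (2.24%) were called, 151 (1.04%) higher and 174 (1.2%) lower in ADREX. Of the genes called lower, 104 were called in both tissues, 57.8% of the brainstem list and 59.8% of the hypothalamus list. Of those called higher, 64 were shared, 37.2% of the brainstem list and 42.4% of the hypothalamus list. No gene was called in opposite directions. Fkbp5 changed by -2.39 ± 0.14 in the hypothalamus, Gpd1 by -2.90 ± 0.20, Rasgrp3 by 1.21 ± 0.10 and Opalin by 0.96 ± 0.09, with limma adjusted p = 6.13e-08, 1.81e-07, 1.3e-06 and 9.55e-06. Of the 42 glucocorticoid-responsive genes 23 fell there, with a median of -0.85.

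One gene, Pcdh20, differed between the tissues by the test of the difference (0.00688% of 14533 genes). It changed by -2.22 ± 0.18 in the brainstem and -0.81 ± 0.12 in the hypothalamus. In the hypothalamus it averaged 403 ± 54.2 in ADREX ozone and 706 ± 75.1 in sham ozone. The difference of the changes was -1.41 ± 0.22 (limma adjusted p = 0.00841). Tmc7, called in the brainstem only, changed by 1.28 ± 0.18 there and 0.21 ± 0.17 in the hypothalamus, a difference of 1.07 ± 0.24 that did not pass (limma adjusted p = 0.355). Cdkn1a had a difference of -1.36 ± 0.27 that also missed the threshold (0.118).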

How the data were processed

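The authors deposited one table of normalized read counts, a signal per gene, for 22587 genes in 32 libraries. Partek, DESeq2 and the rat build rn6 are named per the submitters' processing notes, with no aligner or annotation stated in the sources used here. RNA was extracted with a Direct-zol kit and mRNA libraries were sequenced on a NextSeq 500, per the labels' protocols. In every column the deposited values were whole multiples of one step, within 0.001 for 100% of values, so whole reads could be recovered by division. The recovered totals gave 6.94 to 12.4 M reads per library for the 8 libraries compared.

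Groups came from the sample labels. Values entered as log2(value + 1), and a gene needed a mean of at least 10 over the fitted libraries. The 16 brainstem libraries were fitted with 4 group means in limma 3.58.1 (R 4.3.3), with a prior variance that follows the mean, two-sided tests and Benjamini-Hochberg adjustment over all genes of the fit. The hypothalamus was fitted in the same way on its own 16 libraries, and the difference between tissues on all 32 with 8 group means. Adjusted p under 0.05 was a call, and a fold of 1.5 or more was counted beside it. Tried as alternatives were a pseudocount of 0.5 or 5, a minimum mean of 50 or none, median-of-ratios or quantile scaling, limma sample weights, recovered reads in edgeR 4.0.16 (quasi-likelihood) or DESeq2 1.42.0, a fit of the compared groups alone, and removal of each library in turn.

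Genes were named by a rule. For each direction it takes 15 called genes, those furthest from 0 whose higher group averaged at least 50, whose values were separate between groups and whose symbol is not provisional. To these come, from every gene list, as many as 3 called members ranked by p, and 12 preset genes whatever their p. Other list members, genes carrying the promoter motif and a locus that follows Pnpla2 were named after their values were seen. The comparison, the 34 gene lists and the rule were chosen with earlier results of these data known. Lists are described by counts and medians, with no set test. The fits were checked on simulated counts with known changes. Promoter windows are from RefSeq (GRCr8), whose coordinates apply to those sequences only. Figures were drawn with matplotlib.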

Additional observations from a re-analysis of the deposited data

Results flagged for a closer look

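Within the groups of 4 libraries, 12 of 124 pairs of a named gene and a group in ozone held a library far from the other 3 by Dixon's test, of which chance gives about 1 in 20. Library ADREX ozone 81 accounted for 7 of them. In it Zbtb16 was at 59.8 normalized counts (nearest other ADREX library 28.0), Sgk1 at 81.6 (245), Scap at 1111 (880.5), Opalin at 2291 (3858), Tie1 at 426 (330.5), Tsc22d3 at 577 (1941) and Crh at 19.9 (53.5). Library ADREX ozone 82 was high for Mt1 at 159 (78.6) and for Pnpla2 at 201 (181). Library sham ozone 18 was high for Tlr2 at 91.4 (nearest other sham library 54.3), Agt at 3083 (2814) and Sall1 at 604 (497).

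For 15 named genes the ADREX minus sham change differed between ozone and air by limma's interaction test, beside 29 of all 14408 genes (0.201%). These genes were named for their change or p in the same ozone libraries, so their number is raised by that choice. The differences, ozone minus air, were positive for Cd180 at 1.92 (adjusted p = 0.0443), Rasgrp3 at 1.24 (3.7e-05) and Adamts1 at 1.27 (0.0472). They were negative for Hif3a at -3.88 (0.0408), Cdkn1a at -3.06 (3.12e-05), Slc19a3 at -2.75 (0.00803), Fmo2 at -2.66 (0.00401), Pla2g3 at -1.75 (0.00505) and Fkbp5 at -2.42 (6.34e-06). They were negative too for Gpd1 at -1.86 (3.12e-05), Pex11a at -2.00 (4.19e-05), Gpatch4 at -1.70 (0.00102), Pcdh20 at -1.78 (0.00276), Pnpla2 at -1.46 (2.73e-05) and Aspa at -1.51 (0.00856). Between the tissues, brainstem minus hypothalamus, Pcdh20 differed by -1.41 (limma adjusted p = 0.00841).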

How the results depend on the processing

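The count of 352 genes for ADREX against sham in ozone stayed within 1.5 times under other pseudocounts, filters and scalings, with edgeR (346) and with DESeq2 (489). It was 760 with limma sample weights, 148 with the compared groups alone and 197 to 444 when a library was left out. Alternatives chosen after seeing the data gave 410 without ADREX ozone 81 and sham ozone 18, and 466 for the compared groups alone without ADREX ozone 81. In air the count of 0 became 7 with sample weights, 16 with DESeq2 and 0 to 4 with a library left out, 4 without ADREX air 67. The interaction count of 29 became 94 with sample weights, 75 with DESeq2, 58 without both outlying libraries and 18 to 47 with a library left out. In the hypothalamus the count of 325 became 1011 with sample weights, 161 with the compared groups alone and 198 to 584 with a library left out, 584 on removal of sham ozone 18, 198 of 19 and 204 of 20. The tissue difference had 1 gene, and 2 with no filter, 4 with sample weights, 5 with DESeq2 and 1 to 2 with a library left out. The cause of these changes was not tested.

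Of 53 named genes that were called, 39 kept the call under every alternative run. Crh, not called, had a change of -0.03 that became 0.29 with sample weights, 0.05 with edgeR and DESeq2 (0.055 and 0.052), -0.17 to 0.33 with a library left out (0.044 without sham ozone 17 and 0.33 without ADREX ozone 81, also with the compared groups alone) and 0.29 without both outlying libraries. Hmox1, not called, had 0.03 and became -0.0048 with DESeq2, -0.088 to 0.14 with a library left out, the negative ones being -0.088 (library 17), -0.042 (83) and -0.016 (84).

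No paired analysis was possible because the compared operations share no replicate numbers. The tissues do share numbers, but only 7 of 16 pairs had deviations correlated over 0.1 (range -0.53 to 0.61). Whether a number marks the same rat in both tissues cannot be told from these correlations. With the replicate block the tissue difference still had 1 gene. At 6.94 to 12.4 M reads, genes with few counts, Hif3a in ADREX among them, have wide intervals.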

Other observations

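Other called genes, chosen after their values were seen, add to the groups above. Among genes of growth and matrix, cyclin D1 (Ccnd1) changed by 0.96 ± 0.11 and the laminin chain Lama4 by 1.03 ± 0.18, both higher in ADREX ozone, while connective tissue growth factor (Ctgf) changed by -2.09 ± 0.28 and placental growth factor (Pgf) by -1.65 ± 0.24, both lower. Ccnd1 averaged 386 ± 16.1 in ADREX ozone and 198 ± 16.5 in sham ozone, and Ctgf averaged 34.2 ± 11.1 in ADREX ozone and 146 ± 37.6 in sham ozone (SD, n = 4 each). Further genes of lipid handling fell, among them the ceramidase Acer2 (-1.79 ± 0.23), the peroxisomal enzyme Ehhadh (-1.51 ± 0.29) and the adiponectin receptor Adipor2 (-1.30 ± 0.16). Tnfrsf11a, the receptor RANK, averaged 90.6 ± 7.70 in ADREX ozone and 321 ± 25.2 in sham ozone, a change of -1.81 ± 0.14. The scavenger receptor Cd163, a marker of macrophages around vessels, changed by -1.87 ± 0.43, against the direction of Adgre1. Limma's adjusted p was 5.87e-05 for Ccnd1, 0.000399 for Ctgf, 0.000239 for Acer2, 5.8e-07 for Tnfrsf11a and 0.0264 for Cd163. The call of each of these genes held whichever library was left out, except that of Cd163, which held in 3 of 8 such fits.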
